A study of Gallus gallus with 4 samples.

Results

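The mitochondrial genome genes of the chick are those that the annotation of the assembly Gallus gallus 5.0 places on the chromosome MT. They were chosen by that chromosome alone and by no measured value, and they make up 32 of the 24513 gene identifiers and 42 of the 220717 exon parts of the count table. The 32 identifiers hold 37 genes, because 4 combined identifiers stand for 9 genes that overlap on the genome. Genes that overlap on opposite strands kept separate identifiers: tRNA-Ser1 with the end of COX1 (bases 8124 to 8192), and tRNA-Gln with tRNA-Met (base 5172). The 37 genes are 2 rRNA genes, 22 tRNA genes and 13 protein genes, with 28 on the plus strand and 9 on the minus strand. Names were given by gene order. All 37 genes had the strand of that order and the gene type that RefSeq gives for the later assembly GRCg7b, 32 had the same length there and 4 differed by 1 to 3 bases. The remaining one, tRNA-Ser1, is 135 bases long here, 60 more than in RefSeq. The protein gene symbols come from RefSeq, and the tRNA names come from the known gene order of birds.

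The samples were cranial headfolds of Special black chick embryos at Hamburger-Hamilton stage 8 to 9, after 27 hr of incubation. Control embryos had received isotonic saline and alcohol embryos 0.43 mmol of ethanol, which the methods give as 52 mM for 90 min, and headfolds were taken 6 hr after the start of exposure and pooled by 23. The data are 4 sequencing lanes of read pairs (75 bases each), control 1 and 2 from one sequencing run and alcohol 1 and 2 from another. What treatment did and what the run did therefore cannot be told apart here. A headfold holds several tissues, and its defining markers were not checked, since the gene reference used here could not be matched to the identifiers outside MT. In such a bulk sample, fewer cells of a type and less RNA per cell cannot be told apart.

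Mitochondrial DNA is a small circle that is transcribed from both strands into long precursors. In vertebrates most of its tRNA genes lie between the rRNA and protein genes, and the tRNAs are cut out of the precursor, which releases the rRNAs and mRNAs on either side. The 2 rRNAs build the mitochondrial ribosome, the tRNAs serve its translation, and the protein genes encode core subunits of respiratory complexes I, III and IV and of the ATP synthase. All other subunits are encoded in the nucleus. For these libraries RNA was captured by its poly(A) tail on poly-T beads, and cDNA was made with random hexamers. In human mitochondria most mRNAs carry poly(A) tails, the rRNAs carry short ones and the ND6 mRNA carries none.

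The lanes held between 15388474 and 20951322 counts. The control lanes differed from each other by little more than sampling noise over all identifiers (chi-square per degree of freedom 1.03, under the limit of 1.1) and were summed to 1 library, while the alcohol lanes differed by more (4.79) and stayed separate. This leaves n = 1 for control and n = 2 for alcohol. The study describes 2 replicate pooled samples per group, while the labels give only a run and a lane for each. Over all identifiers the control lanes agree nearly within sampling noise. Over the MT identifiers alone they differed by more (chi-square per degree of freedom 1.60, above the limit used for summing). Whether 2 lanes of 1 group are 2 pools was not settled here. With control as 1 library, the p-values of the main fits rest on the spread between the 2 alcohol lanes alone. That spread may be technical, and edgeR moderates it over all features. The spread between control lanes entered only where every lane was its own library.

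The mitochondrial genome took a smaller share of all counts after alcohol. It held 44.25% of the counts in control 1 (95% Wilson interval 44.23 to 44.27) and 44.17% in control 2 (44.15 to 44.19). In alcohol 1 the share was 33.3% (33.27 to 33.32) and in alcohol 2 it was 32.93% (32.9 to 32.95). Both alcohol lanes lay below both control lanes, with a mean of 33.1% ± 0.26 (SD, n = 2) against 44.2% in the summed control library, a difference of -11.1 percentage points. The intervals, here and elsewhere, cover counting error only. A two-sided exact permutation test over the libraries gave p = 0.333, which is the smallest p this design allows (n = 1 and n = 2). Set against the counts of all other identifiers, MT gave 79.4 and 79.1 counts per 100 in the control lanes, against 49.9 and 49.1 in the alcohol lanes.

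**Figure D1:**
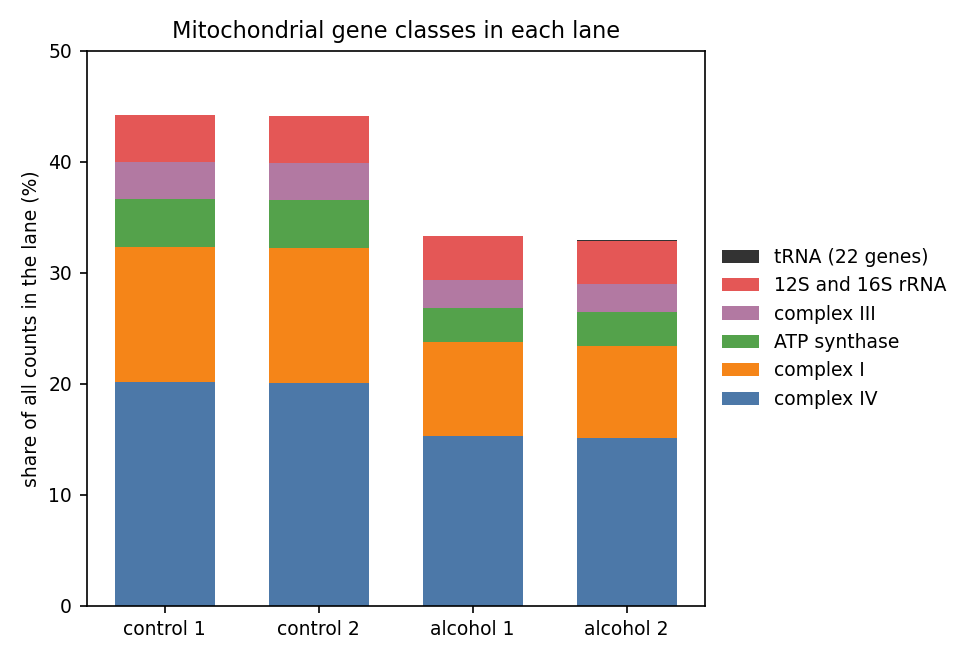
Stacked bars of the share of all counts (%) that each class of mitochondrial genes took in each of the 4 lanes. The 2 control bars reach 44.2% and the alcohol bars 33.3% and 32.9%; the rRNA segment is nearly as tall in all 4 lanes (4.17% and 3.92% to 3.93%), and the tRNA segment is too thin to see at this scale.

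Each identifier was then tested with edgeR's quasi-likelihood test with p-values adjusted by Benjamini-Hochberg over all 18093 identifiers tested and a threshold of 0.1. The test was run on 3 scales, and all changes are log2 of alcohol over control. Their standard errors were worked back from the F statistic of the test, as the absolute change over its square root. On the TMM scale, which sets the median identifier near no change, 31 of the 32 MT identifiers had at least 10 counts and were tested, and all 31 were called lower, where 11.7% of all identifiers were called lower. Their median log2 change was -1.10, against 0.01 for all identifiers. Lower calls were more frequent among abundant genes, and higher calls were less frequent. Of the 100 most abundant identifiers outside MT, 41 were called lower and 5 higher, with a median of -0.20. Of all identifiers, 15.6% were called higher. DESeq2's Wald test called 27 of the 31 lower and gave no adjusted p for the other 4, all of them tRNA genes with few counts. On the exon part level, 37 of 38 tested MT parts were called lower on that part table's own TMM scale (8.48% of all parts), and the remaining one was that of 16S rRNA (-0.65 ± 0.27, adjusted p = 0.111). MT identifiers share 1 total and 1 genome, so they are not independent of each other.

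Of the 31 MT identifiers, 29 were called lower as a share of all counts, against 3.33% of all identifiers. On this scale the median of all identifiers was 0.36, so that a value near 0 lies below the typical gene. The exceptions were 16S rRNA and tRNA-Gln (-0.49 ± 0.35, adjusted p = 0.285). As a share of the MT counts, which compares the mitochondrial genes with each other, 18 of the 31 were called lower and 2 higher. Over all identifiers, 0.442% were called lower and 72.0% higher on this last scale, with a median of 0.78. The following values use the shares, and the 9 genes of combined identifiers are described by the exon part that belongs to each of them alone. For exon parts, 1.47% of all those tested were called lower as a share of all counts and 0.355% when scaled to the MT total.

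As a share of all counts, the 2 rRNA genes had the values closest to control. The rRNAs together held 4.17% of all counts in each control lane, against 3.93% and 3.92% in the alcohol lanes. Their share of the MT counts rose from 9.43% and 9.44% to 11.8% and 11.9%, which is 1.26 times the control share. No alcohol lane overlapped a control lane in either measure, and the share of all identifiers with such a separation was not counted.

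16S rRNA, the RNA of the large subunit of the mitochondrial ribosome (MT, bases 2346 to 3966, plus strand), took 3.21% and 3.20% of all counts in the control lanes, against 3.11% and 3.08% in the alcohol lanes. This difference was within its error (-0.05 ± 0.09, adjusted p = 0.692), while on the TMM scale 16S rRNA was called lower (-0.41 ± 0.10, adjusted p = 0.00616). Its share of the MT counts was 7.25% in both control lanes, against 9.34% and 9.35% in the alcohol lanes. There it was called higher (0.37 ± 0.08, adjusted p = 0.00181).

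12S rRNA, the RNA of the small subunit (bases 1297 to 2272, plus strand), took 0.964% and 0.970% of all counts in the control lanes, against 0.817% and 0.841% in the alcohol lanes. The fall was called in the fit over identifiers (-0.22 ± 0.10, adjusted p = 0.0655) and not in the fit over exon parts, with the same value of -0.22 (adjusted p = 0.158). Its share of the MT counts was 2.18% and 2.20% in control and 2.45% and 2.55% after alcohol, and it was called higher there (0.20 ± 0.09, adjusted p = 0.0745). Both adjusted p-values lie close to the threshold. As a share of the MT counts, the unadjusted p of 12S rRNA was 0.0519 (edgeR). With 72.0% of all identifiers called higher on that scale, adjustment raised p-values there little. Per length, 16S stood at 2.00 and 1.99 times 12S in the control lanes and at 2.29 and 2.20 times in the alcohol lanes.

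**Figure D2:**
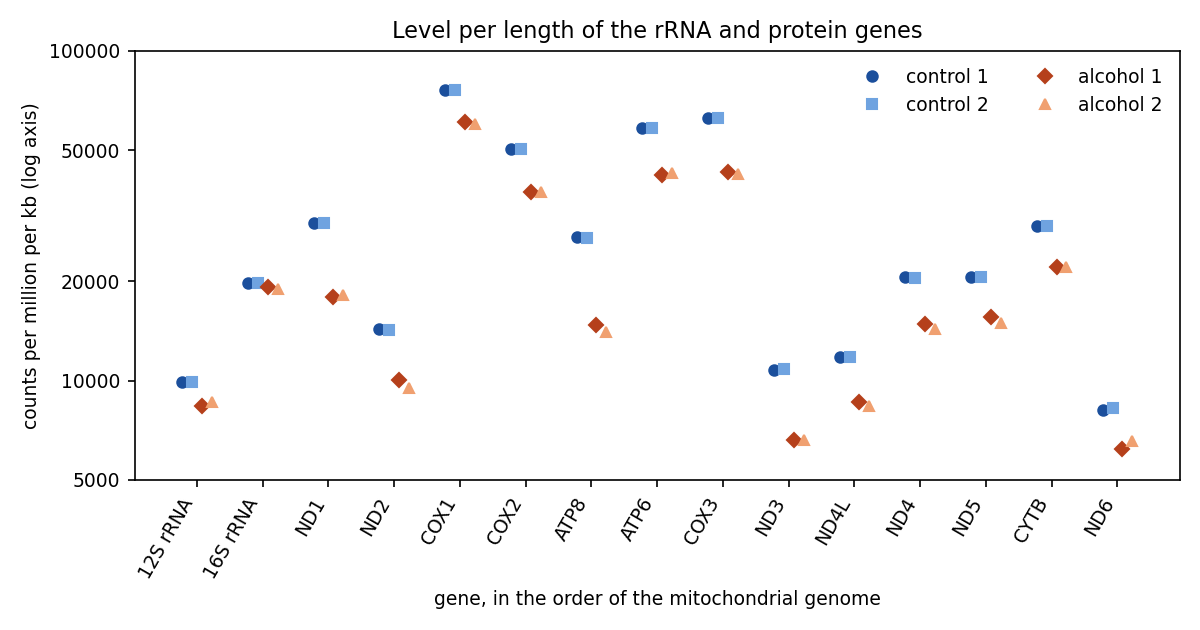
Level per length (counts-per-million, CPM, per kb of the exon part counted, log axis) of the 2 rRNA and 13 protein genes in each of the 4 lanes, in genome order. The length of COX1 includes its overlap with tRNA-Ser1. For every gene both alcohol points lie below both control points, with the smallest gap at 16S rRNA (19790 and 19750 against 19180 and 19000) and a wide one at ATP8 (27180 and 27120 against 14730 and 14070). How common such a separation of lanes was over all identifiers was not counted.

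All 13 protein genes were called lower as a share of all counts, 7 by identifier and 6 by exon part. The median of the 13 was -0.47, from -0.92 for ATP8 to -0.33 for COX1. Together they took 40.0% and 39.9% of all counts in the control lanes, against 29.35% and 28.98% in the alcohol lanes. As a share of the MT counts, 3 of the 13 were called lower (ND1, ND3 and ATP8), none was called higher and 10 were not called, and the median was -0.06. At an unadjusted p under 0.05, edgeR gave 16 lower and 1 higher of the 31 MT identifiers on that scale. Called there with an unadjusted p above 0.05 were 12S rRNA (0.0519), tRNA-Pro (0.0534) and tRNA-Ser1 (0.0720).

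Complex I, the NADH dehydrogenase that feeds electrons into the chain, has 7 of its subunits encoded on MT. The complex I genes together held 12.2% and 12.1% of all counts in control and 8.46% and 8.26% after alcohol, and their share of the MT counts was 27.5% and 27.4% against 25.4% and 25.1%. All 7 were called lower as a share of all counts, and ND1 and ND3 also as a share of MT counts.

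ND1, a membrane subunit next to the quinone site (bases 4050 to 5024, plus strand), took 2.94% of all counts in both control lanes, against 1.75% and 1.78% in the alcohol lanes (-0.74 ± 0.09, adjusted p = 1.75e-09). In share of the MT counts it went from 6.64% and 6.65% to 5.27% and 5.39% (-0.32 ± 0.08, adjusted p = 0.00456). ND1 is the first protein gene after 16S rRNA, with tRNA-Leu1 between them. Per length, ND1 stood above 16S rRNA in the control lanes (1.52 and 1.53 times) and below it in the alcohol lanes (0.938 and 0.959 times), so that the order of these neighbours was opposite in the 2 groups.

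ND3, another membrane subunit (bases 10776 to 11126, plus strand), took 0.379% and 0.380% of all counts in control and 0.232% and 0.231% after alcohol (-0.71 ± 0.11, adjusted p = 2.03e-07). Its share of the MT counts was 0.857% and 0.860% against 0.696% and 0.702% (-0.30 ± 0.10, adjusted p = 0.0149). For both ND1 and ND3 the gap between the groups was many times the gap between lanes of a group.

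The other complex I genes were not called as a share of MT counts. ND2 (unique part bases 5241 to 6279) took 1.49% and 1.48% of all counts in control and 1.05% and 0.987% after alcohol (-0.55 ± 0.12), and changed by -0.13 ± 0.09 as a share of MT counts (adjusted p = 0.216). ND4 (bases 11493 to 12863), a proton-pumping subunit, took 2.83% and 2.81% against 2.03% and 1.96% (-0.50 ± 0.11). ND4L (bases 11196 to 11485), a small subunit, took 0.342% in both control lanes, against 0.251% and 0.242% in the alcohol lanes (-0.47 ± 0.13). Scaled to the MT counts, ND4 changed by -0.08 ± 0.09 and ND4L by -0.06 ± 0.11, and neither was called. The reading frames of ND4L and ND4 overlap, and in human mitochondria both lie on 1 mRNA. The level of ND4L per length was 0.573 and 0.575 times that of ND4 in the control lanes and 0.584 and 0.583 times in the alcohol lanes.

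ND5, the longest of these genes and a proton-pumping subunit (bases 13071 to 14888), took 3.75% and 3.74% of all counts in control and 2.83% and 2.72% after alcohol (-0.43 ± 0.09). Its share of the MT counts, 8.48% and 8.46% against 8.49% and 8.26%, overlapped between the groups. ND6, the only protein gene on the minus strand (bases 16184 to 16705), took 0.425% and 0.431% of all counts in control and 0.324% and 0.343% after alcohol (-0.36 ± 0.10, adjusted p = 0.00452). In share of the MT counts ND6 had 0.961% and 0.976% against 0.974% and 1.04% (0.06 ± 0.10, adjusted p = 0.622), and the lanes overlapped. The authors counted without regard to strand, so RNA of ND6 and RNA of the opposite strand cannot be told apart.

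Complex III, which passes electrons to cytochrome c, has CYTB as its single mitochondrial gene (bases 14893 to 16035, plus strand). CYTB took 3.37% of all counts in both control lanes, against 2.53% and 2.52% in the alcohol lanes (-0.42 ± 0.09, adjusted p = 1.03e-04). Its share of the MT counts was 7.62% and 7.63% in control and 7.59% and 7.65% after alcohol. The alcohol lanes lay on either side of the control lanes, and the change was 0.00 ± 0.08 (adjusted p = 0.989).

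Complex IV, the cytochrome c oxidase that hands electrons to oxygen, has its 3 catalytic core subunits on MT. They held the most counts of any class, 20.1% of all counts in each control lane, against 15.3% and 15.1% in the alcohol lanes. Of the MT counts they had 45.5% in both control lanes and 46.0% and 45.9% after alcohol. COX1, the subunit with the oxygen-binding site (bases 6645 to 8192, plus strand), took 11.8% of all counts in both control lanes, against 9.41% and 9.26% in the alcohol lanes (-0.33 ± 0.08, adjusted p = 4.76e-04). It alone held 26.6% of the MT counts in each control lane, against 28.3% and 28.1% in the alcohol lanes. That difference was larger than the gap between lanes but was not called (0.08 ± 0.08, adjusted p = 0.354).

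COX2, which receives electrons from cytochrome c (bases 8331 to 9014, plus strand), took 3.45% and 3.44% of all counts in control and 2.55% in both alcohol lanes (-0.44 ± 0.09). COX3, the third core subunit (unique part bases 9924 to 10706, plus strand), took 4.91% and 4.90% against 3.35% and 3.32% (-0.56 ± 0.11). Neither was called as a share of MT counts (COX2 -0.02 ± 0.08, COX3 -0.14 ± 0.08, adjusted p = 0.858 and 0.142). Per length, COX3 stood at 0.824 times COX1 in both control lanes and at 0.704 and 0.709 times in the alcohol lanes, and COX2 at 0.662 and 0.663 times against 0.613 and 0.622 times.

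The ATP synthase, which makes ATP from the proton gradient, has ATP6 and ATP8 on MT. ATP8, a small membrane subunit with 155 bases of its own (bases 9085 to 9239, plus strand), took 0.421% and 0.420% of all counts in control and 0.228% and 0.218% after alcohol. This was the lowest log2 change among the 13 protein genes (-0.92 ± 0.13, adjusted p = 1.76e-10), also in share of the MT counts (-0.50 ± 0.11, adjusted p = 3.22e-05). ATP6, which forms the proton channel (unique part bases 9250 to 9922, plus strand), took 3.92% of all counts in both control lanes and 2.82% and 2.86% after alcohol (-0.46 ± 0.11), and changed by -0.05 ± 0.09 as a share of MT counts. The ATP8 and ATP6 reading frames overlap, and in human mitochondria they lie on 1 mRNA. Per length, ATP8 stood at 0.467 and 0.466 times ATP6 in the control lanes and at 0.352 and 0.331 times in the alcohol lanes, where the ratio of ND4L to ND4 differed little between the groups.

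Levels per length ordered the 13 protein genes over a range of 9.27 times in control and 9.44 times after alcohol, from COX1 at the top to ND6 at the bottom. COX1, COX3, ATP6 and COX2 took the first 4 places of the 15 rRNA and protein genes in both groups, with COX3 and ATP6 overlapping across the alcohol lanes (42780 and 42390 against 41890 and 42490 CPM per kb). ND5 and ND4 overlapped across the control lanes (20640 and 20560 against 20610 and 20510). 16S rRNA stood in place 10 in control and in place 6 after alcohol, ATP8 in 7 and 10, and ND1 in 5 and 7. The change in share of MT counts was compared with the unique length and the gene order by Spearman's rho. Over all 13 protein genes, rho was 0.440 with the unique length and 0.418 with the gene order, which is nearly the same. Over the 12 protein genes of the plus strand, which leave out ND6, rho was 0.580 with the unique length and 0.329 with the gene order. These genes share libraries and a total, so the values are a description.

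**Figure D3:**
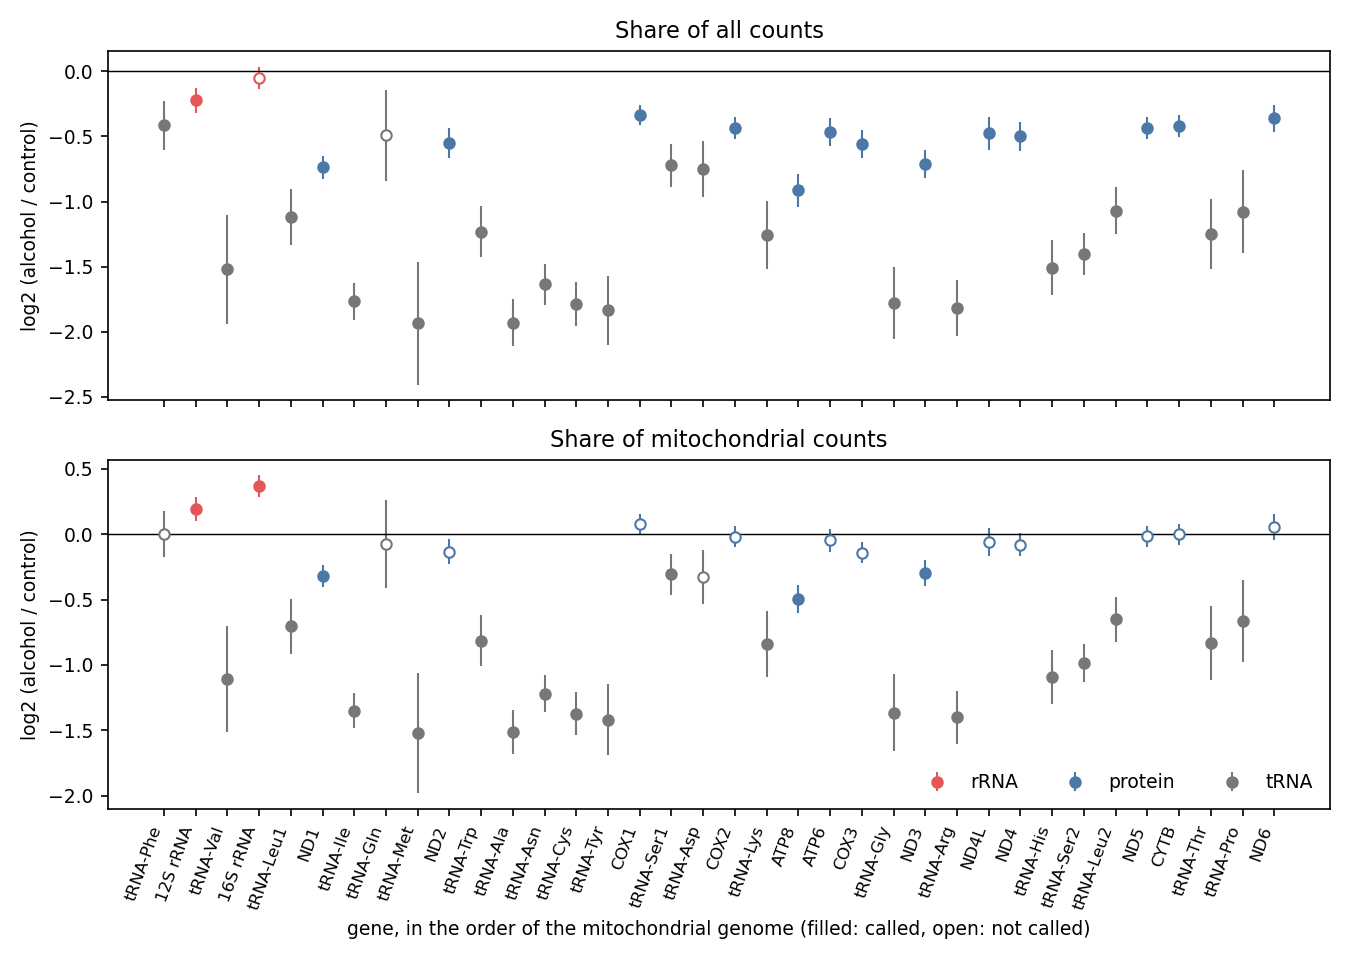
Log2 change (alcohol over control, points) of 36 mitochondrial genes in genome order, with rRNA, protein and tRNA genes in separate colours. Bars are standard errors worked back from the test. The upper panel gives the share of all counts and the lower panel the share of mitochondrial counts. Every point of the upper panel lies below 0; in the lower panel 16S and 12S rRNA lie above 0 at 0.37 and 0.20, most protein genes lie within 0.15 of it, and most tRNA genes lie well below it.

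As a class the tRNA genes had the lowest values. Counts on all 22 together were 13674 and 13265 in the control lanes, against 3582 and 3937 in the alcohol lanes. These were 0.148% and 0.144% of the MT counts in control and 0.0699% and 0.0704% after alcohol, 0.481 times the control share. A count on a tRNA gene can come from a mature tRNA or from an uncut precursor, and the counting does not tell these apart.

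Of the 22 tRNA genes, 21 had at least 10 counts. On the TMM scale all 18 with an identifier of their own were called lower, and so were the unique parts of the other 3. As a share of all counts 20 of the 21 were called lower, with tRNA-Gln not called, and the median was -1.40. When scaled to the MT counts, 18 were called lower and none higher, with a median of -0.99. Not called there were tRNA-Phe (0.00 ± 0.18), tRNA-Gln (-0.08 ± 0.34) and tRNA-Asp (-0.33 ± 0.21). The lowest value was that of tRNA-Met (-1.52 ± 0.46), which rests on 29, 21, 4 and 6 counts.

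The 4 tRNA genes with the most counts per kb are described one by one. tRNA-Ile, which carries isoleucine (bases 5025 to 5096, plus strand, just after ND1), had 177 and 172 CPM in the control lanes and 49.1 and 53.4 CPM in the alcohol lanes. As a share of MT counts it changed by -1.35 ± 0.13 (adjusted p = 9.01e-06). tRNA-Cys, which carries cysteine (unique part bases 6508 to 6572, minus strand), had 89.9 and 84.6 CPM in control and 25.3 and 25.2 CPM after alcohol. Its change was -1.37 ± 0.16 in the fit over exon parts (adjusted p = 1.82e-14). In the fit over identifiers, the one used for tRNA-Ile, its combined identifier with tRNA-Tyr changed by -1.38 ± 0.14 (adjusted p = 1.09e-05). For tRNA-Ile and tRNA-Cys the alcohol lanes lay far below the control lanes.

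tRNA-Asn, which carries asparagine (bases 6434 to 6506, minus strand), had 89.5 and 88.6 CPM in control and 29.8 and 27.5 CPM after alcohol (-1.22 ± 0.14, adjusted p = 1.96e-05). tRNA-Ser2, which carries serine (bases 12934 to 12998, plus strand), had 68.4 and 67.3 CPM in control and 25.7 and 25.5 CPM after alcohol (-0.99 ± 0.15, adjusted p = 8.55e-05). The number in its name is the second of the 2 serine genes in genome order. Lanes of the same group differed by little in these genes. In CPM the groups did not overlap, which held for every tRNA gene with counts. How common this was over all identifiers was not counted.

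**Figure D4:**
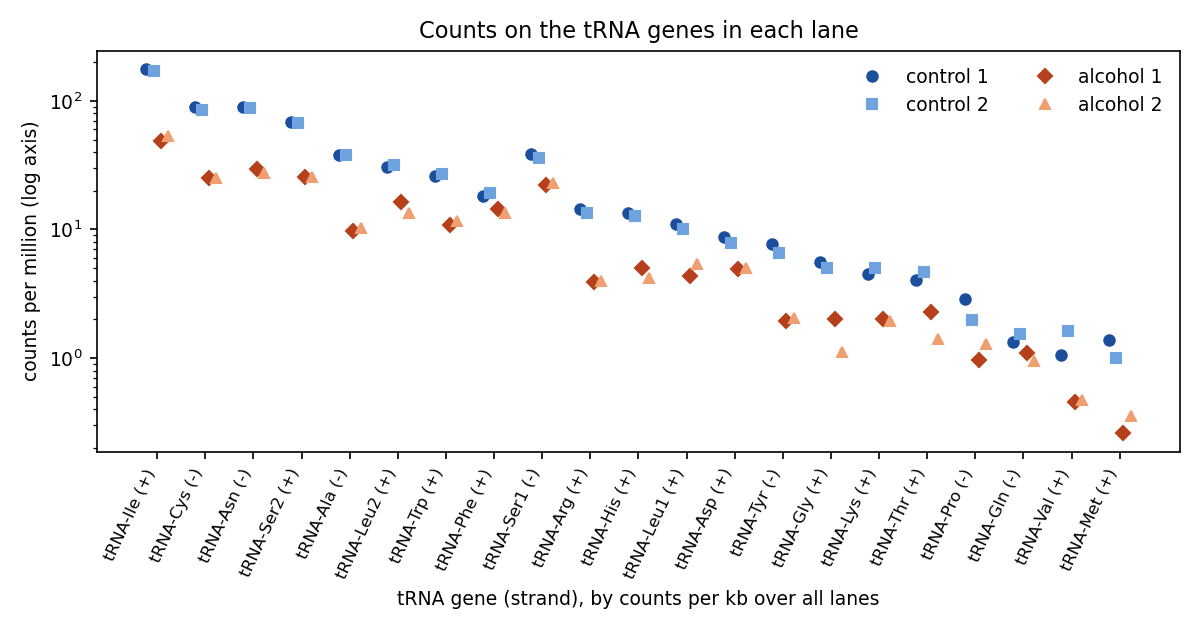
Level in CPM (log axis) on each of the 21 tRNA genes with counts in each of the 4 lanes, ordered by counts per kb over all lanes, with the strand in brackets. Both alcohol points lie below both control points for all 21 genes, from tRNA-Ile (177 and 172 against 49.1 and 53.4) down to tRNA-Met (1.38 and 1.01 against 0.26 and 0.35), with narrow gaps at tRNA-Phe and tRNA-Gln. The share of all identifiers with such a separation of lanes was not counted.

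The remaining tRNA genes with counts ranged from 2300 counts over all lanes for tRNA-Ser1 down to 60 for tRNA-Met. tRNA-Glu, the last annotated gene (bases 16708 to 16775, minus strand), had 0 counts in every lane. By counting error alone, a count of 0 allows between 0.143 CPM (deepest lane) and 0.195 CPM (shallowest lane) at most. Pairs that reached into ND6, which ends at base 16705, may have no count, so this sets no limit on the RNA of tRNA-Glu. By strand of the gene, the 14 tRNA genes of the plus strand held 0.495 times their control share of the MT counts after alcohol, and the 8 of the minus strand 0.461 times. Counting ignored strand, so these counts may hold RNA of the opposite strand, and transcripts of the 2 strands cannot be told apart. For 5 tRNA genes a call was lost when 1 control lane was left out. Without control 2, tRNA-Gln was not called on the TMM scale (adjusted p = 0.207), tRNA-Phe not as a share of all counts (adjusted p = 0.126), and tRNA-Val not as a share of MT counts (adjusted p = 0.178). Without control 1, tRNA-Ser1 and tRNA-Pro were not called as a share of MT counts (adjusted p = 0.177 and 0.381). The call of tRNA-Ser1 on that scale (adjusted p = 0.0993) was also lost with no filter on low counts (0.121) and with rRNA left out of the MT total (0.144).

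The counting bears on these short genes. The authors let no read pair count for more than 1 exon part, so pairs that reached from a tRNA gene into a neighbour may have no count, and 26 of the 42 MT parts were shorter than a read of 75 bases. Of these, 22 under 80 bases could be tested, and their median change as a share of all counts was -1.34. They include the stretches shared by ATP8 and ATP6 (10 bases) and by ND4L and ND4 (7 bases). Outside MT, exon parts of 65 to 74 bases with at least 1000 counts had a median of -0.38 (n = 17). The 9 MT parts under 80 bases with as many counts, the 10-base stretch among them, had -1.40. With at least 10 counts, as for the 22, the parts of 65 to 74 bases outside MT had a median of 0.57 (n = 2590). For ATP8, with 155 bases of its own, the range outside MT is 81 to 200 bases. Its median was 0.06 with at least 1000 counts (n = 870) and 0.76 with at least 10 (n = 57011). Parts outside MT of over 1000 bases and with at least 1000 counts had a median of 0.38 (n = 2725), and the median of all exon parts was 0.63. Outside MT, with at least 1000 counts, the parts of 65 to 74 bases thus had a lower median than those of over 1000 bases. With at least 10 counts, their median lay under that of all exon parts and above the 0.43 of parts over 1000 bases. The part that length or counting plays in the tRNA and ATP8 values was not tested.

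The alcohol lanes also differed from each other within MT. The chi-square per degree of freedom over 31 MT identifiers was 1.60 between the control lanes and 29.2 between the alcohol lanes. ND6 differed most among the rRNA and protein genes, with a log2 of alcohol 2 over alcohol 1 of 0.09 in share of MT counts against a counting error of 0.01. For ND2 this value was -0.07 and for 12S rRNA it was 0.06. Between the control lanes ND6 also had the highest value, 0.02. The gap between the alcohol lanes thus exceeded the change of ND6 in share of MT counts (0.06), while for 16S rRNA, ND1, ND3 and ATP8 it lay below their changes.

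Outside MT, the group that the authors' deposited table names TCA/OxPhos was counted. The study's supplement lists metabolic pathways such as pentose phosphate, fatty acid, riboflavin and propanoate metabolism for it, and not oxidative phosphorylation itself. The study also places the glycolysis genes GAPDH and ENO1 in this group. Its text reports that its exon-level and earlier gene-level analyses both found altered enrichment of oxidative phosphorylation, with suppressed expression. How far the group holds nuclear genes of the respiratory chain was not checked here. The group's 219 identifiers hold none from MT, and neither do the 1251 identifiers of the whole table. That table comes from the authors' test of exon usage within a gene, which gives no abundance. Apart from the 4 combined identifiers, each MT identifier has a single exon part, whose usage within its gene cannot be tested. Their absence from the table is therefore no result on their abundance. On the TMM scale, 46 of the 219 were called lower and 22 higher, against 11.7% and 15.6% of all identifiers, with a median of -0.13. The study chose this list on these samples, so the count is not independent evidence of its direction. The median of the 219 as a share of all counts was 0.23, under the 0.36 of all identifiers and above the -0.75 of the MT identifiers. The 100 most abundant identifiers outside MT had a median of 0.15 on that scale.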

How the data were processed

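The authors deposited raw counts of read pairs per exon part. Per the file headers, the labels and the methods, reads had been trimmed, aligned with Bowtie2 to Gallus gallus 5.0 and counted with featureCounts 1.5.2, for pairs with both ends mapped, without regard to strand, and with no option set to count a pair for several parts or several places. The first annotated gene of MT starts at base 1228. The authors' deposited table of exon usage results also holds normalized counts, usage coefficients and fold changes of the authors' own comparison, and only its identifiers and pathway groups were used.

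Counts were summed per identifier over its exon parts. Lanes of a group were added up where the chi-square per degree of freedom over identifiers lay below 1.1. Features with 10 or more counts in all were tested by the quasi-likelihood test of edgeR 4.0.16 under R 4.3.3 (Benjamini-Hochberg over all features, false discovery rate 0.1), with TMM, with the library size alone and with the MT total as the library size. The last of these for exon parts was added after seeing the data, as were the lengths and the minimum of 1000 counts for the parts outside MT. A gene in a combined identifier was described by its unique part. The TMM scales of identifiers and of exon parts differ, so values on them were not set side by side. The fits were tested on simulated data. Shares have 95% Wilson intervals, and a count of 0 was given a floor of 3 counts per lane. DESeq2 1.42.0, other scalings, no filter, every lane as its own library and leaving out each lane were the alternatives. The other software was data.table at version 1.17.8, Python 3.11.15, numpy 2.4.6, pandas 2.3.3, scipy 1.17.1 and matplotlib 3.10.9. All rRNA and protein genes were named, with the 4 tRNA genes of most counts per kb. The members and lists were chosen with earlier results of these data known.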

Additional observations from a re-analysis of the deposited data

How the results depend on the processing

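The counts of called MT identifiers stayed within 1.5 times of the main value under every alternative that gave one, from 27 to 31 on the TMM scale (29 with library size alone), from 28 to 29 as a share of all counts, from 16 to 22 lower and from 2 to 3 higher as a share of MT counts, and from 34 to 38 for exon parts. The difference in MT share went from -11.1 to -11.4 percentage points with rRNA left out of both totals and to -9.59 with combined identifiers left out, and lay between -11.3 and -10.9 when each lane was left out. For 43 values of single genes, 260 of 265 alternatives with a test kept the direction and the side of the threshold. Of 86 values without an alcohol lane, which have no test, 84 kept the direction and moved by less than the standard error. 16S rRNA lost its call with library size alone. COX1 became called higher as a share of MT counts with every lane as its own library, at 0.08 again (adjusted p = 0.00263, edgeR). In the same setting 3 combined identifiers became called lower: ATP8/ATP6/COX3 (-0.11, adjusted p = 6.24e-04), ND2/tRNA-Trp (-0.13, 0.00377) and ND4L/ND4 (-0.08, 0.0161). So did tRNA-Asp (-0.33, 0.0645). With rRNA left out of the MT total, COX2 went to 0.021, ND5 to 0.022 and CYTB to 0.0376. When each lane was left out, ND5 lay between -0.037 and 0.0028 and CYTB between -0.0075 and 0.0048. These were uncalled values near 0. Leaving out an alcohol lane left no residual degrees of freedom, so it gave values and no test. No paired analysis was possible because the lane labels carry no replicate numbers that the groups share. The limits are 1 control and 2 alcohol libraries, each group in a run of its own, counts without strand, and few counts on tRNA-Val, tRNA-Met, tRNA-Gln and tRNA-Pro.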
